A study of Caenorhabditis elegans with 2 samples.

Results

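The V1 sector is the peripheral, ATP-hydrolysing part of the vacuolar H+-ATPase, and its 8 listed genes in the nematode Caenorhabditis elegans are vha-8, vha-9, vha-10, vha-11, vha-12, vha-13, vha-14 and vha-15. They were taken by gene name from 19973 protein-coding genes and were described by the strongest ETS-4 ChIP-seq region in the promoter of each. Of the 8 genes, 3 carried a reproducible peak: vha-12 (subunit B) with a signal of 149.1, vha-13 (subunit A) with 92.7 and vha-8 (subunit E) with 78.1. By the same rule 5.34% of all protein-coding genes carried one. The genes were chosen by measured values, with the promoter signals of these same lists in view, so the counts describe the complex and were not tested.

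The V-ATPase pumps protons across membranes and acidifies lysosomes, endosomes and secretory compartments. In the nematode it is known for roles in the excretory cell, the intestine and the epidermis. Its V1 sector holds a ring of alternating A and B subunits, in which A carries the catalytic sites and B binds nucleotide without hydrolysing it. Subunits D and F form the central shaft that turns inside the ring, E and G form peripheral stalks that hold the ring still, and C and H sit where V1 meets the membrane. The V0 sector is the proton channel in the membrane. ETS-4 is a transcription factor of the ETS family, whose members bind DNA at a GGAA core.

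The study measured where ETS-4 sits on chromatin in whole hermaphrodite late embryos, 5 h after synchronization by egg bleaching. Both samples were of strain OP509, genotype unc-119(tm4063) III; wgIs509, which carries a transgene of ETS-4 with a GFP-FLAG tag at its C-terminus. The promoter that drives the transgene is not named in the labels. After sonication, the tagged protein was pulled down through its GFP. The samples are biological replicates 1 and 2, in 1 group, so no comparison of conditions exists. Signal from whole embryos cannot tell apart a promoter bound in few cells from one bound weakly in many.

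Regions came as 4 lists. Replicate 1 had 15619 regions with signals of 13.3 to 593.9, and replicate 2 had 14622 with signals of 13.1 to 545.5. The list pooled over both had 12348 regions with signals of 24.2 to 1137.1 and a median of 31.2. The list of peaks that are reproducible in rank between replicates (irreproducible discovery rate, IDR) held 1106 regions from 71.1 upwards. Signal is the peak caller's own strength value and has a meaning only within its list. The lists hold no read counts and the depth is unknown, and a gene without a region means only that nothing was listed above the lowest value of that list. A promoter was the stretch between 1000 bp before and 200 bp after a transcript start, and each of the 8 genes had 1 annotated start.

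The DNA at some of the strongest summits shows what these promoters do and do not share. The stretches below are 151 bases long, centred on the pooled summit and written 5′ to 3′ on the strand of the gene, from the RefSeq WBcel235 (ce11) genome. The set gives 2 promoters with an IDR peak (vha-12 and vha-8) and the 2 strongest ones without (vha-15 and vha-9). The vha-13 stretch, with an IDR peak of 92.7, is not shown, and GAGAGA and AGAGAC both occur within 100 bp of its summit. Capitals mark the word GAGAGA, the overlapping word AGAGAC and the longer GAGACGCAG, which can overlap both, on either strand, so the reverse complements of these words are in capitals too. The vha-12 stretch is chrX:4190705-4190855 (+), intergenic.
vha-12: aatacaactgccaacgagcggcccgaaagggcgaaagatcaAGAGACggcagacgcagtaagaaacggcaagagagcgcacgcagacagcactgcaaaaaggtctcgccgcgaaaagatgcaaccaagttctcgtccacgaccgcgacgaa
The vha-8 stretch is chrIV:6790582-6790732 (+), intergenic between vha-8 and the divergent gene C17H12.2.
vha-8: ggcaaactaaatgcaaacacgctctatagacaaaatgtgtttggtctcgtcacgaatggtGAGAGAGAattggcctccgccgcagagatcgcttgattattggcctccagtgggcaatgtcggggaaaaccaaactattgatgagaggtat
The vha-15 stretch is chrX:2237566-2237716 (+), intergenic.
vha-15: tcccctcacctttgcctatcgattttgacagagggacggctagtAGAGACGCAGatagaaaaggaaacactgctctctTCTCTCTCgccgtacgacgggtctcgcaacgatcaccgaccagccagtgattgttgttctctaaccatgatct
The vha-9 stretch is chrII:10303858-10304008, read on the minus strand, intergenic.
vha-9: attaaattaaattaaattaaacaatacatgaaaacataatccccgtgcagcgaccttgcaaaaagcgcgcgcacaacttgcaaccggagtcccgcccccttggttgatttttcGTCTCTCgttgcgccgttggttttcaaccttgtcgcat
In vha-8 the run GAGAGAGA begins 15 bases before the summit. In vha-15 the summit falls between AGAGACGCAG, which begins 31 bases before it, and TCTCTCTC, which begins 3 bases after it. In vha-12 the only word in capitals is AGAGAC, at -34 to -29 from the summit.

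The catalytic ring carried the highest signals of the 8 genes. vha-12 (WBGene00006921, subunit B, chromosome X:4191094-4193144, plus strand) had a signal of 149.1 in the pooled list, 51.7 in replicate 1 and 91.9 in replicate 2. These were rank 258 of 12348, rank 546 of 15619 and rank 189 of 14622. The pooled summit lay 314 bp upstream of the start in intergenic DNA. The −log10 q was 3.29, the highest value the pooled list holds, and the same at vha-13 and vha-8. Among the 176 IDR peaks on chromosome X, the vha-12 peak ranked 20. The gene ets-4 itself is on X, 2.33 Mb from vha-12. vha-13 (WBGene00013025, subunit A, chromosome V:14351709-14354422, plus strand) had 92.7 in the pooled list, 45.2 in replicate 1 and 50.2 in replicate 2. The ranks were 693, 736 and 665, so this promoter stood at nearly the same place in each list. Its summit lay 536 bp upstream of the start, in the 3′ UTR of cept-2, the next gene on the same strand, which ends 226 bp before vha-13 begins.

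The peripheral stalk genes differed from each other. vha-8 (WBGene00006917, subunit E, chromosome IV:6791074-6792455, plus strand) had 78.1 in the pooled list, 45.6 in replicate 1 and 31.6 in replicate 2. Its rank was 727 in replicate 1 and 1585 in replicate 2, so it was within the first 1106 regions of replicate 1 and not within those of replicate 2. The summit lay 417 bp upstream of vha-8 and 169 bp from the start of C17H12.2, in the 585 bp between these divergent genes. The region was therefore the strongest one of both promoters, and the lists cannot assign it to either. vha-10 (WBGene00006919, subunit G, chromosome I:5609341-5610270, minus strand) had 36.7 in the pooled list, no region in replicate 1 and 23.9 in replicate 2. Its strongest summit lay 149 bp upstream, within the 3′ UTR of trpp-8, a gene on the same strand whose end is 103 bp away. A second pooled region of 33.2 lay 63 bp inside vha-10.

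Both genes of the central shaft were below the IDR list. vha-9 (WBGene00006918, subunit F, chromosome II:10303050-10303713, minus strand) had 48.9 in the pooled list, 23.7 in replicate 1 and 21.7 in replicate 2, with the pooled summit 220 bp upstream. vha-14 (WBGene00010130, subunit D, chromosome III:9508100-9509757, plus strand) had 33.9 in the pooled list, 25.3 in replicate 1 and no region in replicate 2, with the summit 101 bp upstream. The vha-9 region ranked 2170 of the pooled list and the vha-14 region 4975, with −log10 q of 1.17 and 0.286. vha-9 was thus listed in every set but the IDR list, while vha-14 rested on 1 replicate.

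Subunits C and H, at the joint with the membrane, took the lowest place and the place nearest the IDR limit. vha-15 (WBGene00020507, subunit H, chromosome X:2237911-2240255, plus strand) had 66.6 in the pooled list, 29.3 in replicate 1 and 29.1 in replicate 2, at ranks 1227, 1742 and 1885. It was the first gene of the 8 outside the IDR list, whose lowest signal was 71.1, and vha-8 with 78.1 was the last inside. Its summit lay 270 bp upstream in intergenic DNA. vha-11 (WBGene00006920, subunit C, chromosome IV:2307815-2314567, minus strand) was the only one of the 8 without a pooled region, and its 1 region was in replicate 1, with a signal of 17.9 at rank 6715, 630 bp upstream. The nearest pooled region upstream had 51.7 and lay 2450 bp away, 14 bp from the start of Y38F2AL.12. Between it and vha-11 lies vha-3, a V0 gene on the same strand, 892 bp from vha-11 and 1072 bp from that summit. Genes in a row on a strand can share a transcript in nematodes, and the annotation used here does not say whether these do. The same limit holds for the same-strand pairs trpp-8 and vha-10 (103 bp apart), cept-2 and vha-13 (226 bp) and gcy-4 and vha-9 (425 bp).

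**Figure D1:**
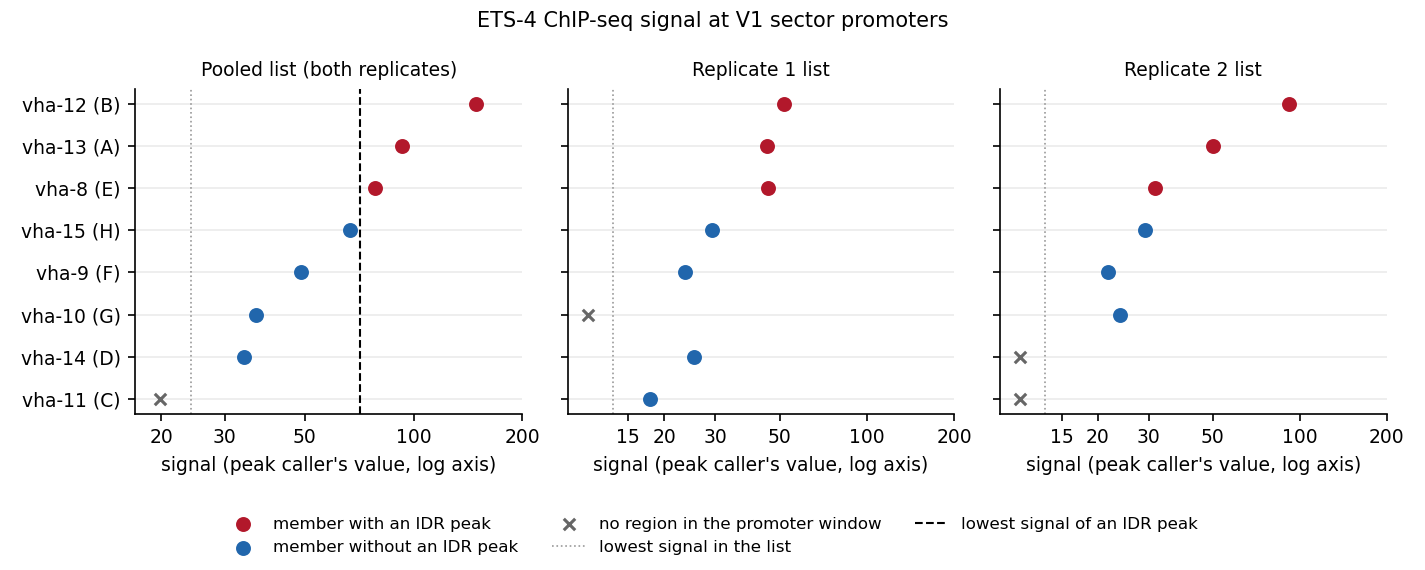
Signal of the strongest region in each V1 promoter (rows, subunit letter in brackets) in the pooled, replicate 1 and replicate 2 lists, on log axes. Crosses are genes with no region, dotted lines are the lowest signal in each list and the dashed line is the IDR limit of 71.1; vha-12, vha-13 and vha-8 lie to its right and vha-15 at 66.6 just to its left.

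By count, 7 of the 8 V1 genes had a region in the pooled list, against 26.5% of all protein-coding genes. In replicate 1 it was 7 of 8, against 29.5% of all genes, and in replicate 2 it was 6 of 8, against 28.5%. vha-8, vha-9, vha-12, vha-13 and vha-15 were in both replicate lists, which makes 5 of 8, against 18.1% of all genes. The pooled and replicate lists keep weak regions as input to IDR, so being listed there does not amount to a reproducible peak. The pooled list reaches down to a −log10 q of 0.0178. In it vha-9 had 1.17, vha-10 0.423 and vha-14 0.286, and the vha-11 region in replicate 1 had 0.175. Among the 1106 highest regions of replicate 1 alone were vha-8, vha-12 and vha-13, where 5.07% of all genes had one. Among those of replicate 2 alone were vha-12 and vha-13, where 5.17% of all genes had one, and vha-8 was not. The median pooled signal of the 8 genes was 57.8, with vha-11 ranked lowest. The median over the 5284 genes that had a pooled region was 36.8, and 7.15% of all genes were at or above 57.8.

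The 7 strongest pooled summits lay upstream of the start, from 101 bp at vha-14 to 536 bp at vha-13. Of them, 5 were intergenic and 2 were in the 3′ UTR of the neighbour upstream (vha-10 and vha-13). Over all genes with an IDR peak in the promoter, the median position was -248 bp, the quartiles were -441 and -136.2 bp, and 95.9% lay upstream. vha-12 and vha-8 fell inside those quartiles, and vha-13 lay farther upstream. Of the 3 V1 genes with an IDR peak, only vha-8 shared its summit with another gene's promoter, while 58.7% of all genes with an IDR peak did.

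**Figure D2:**
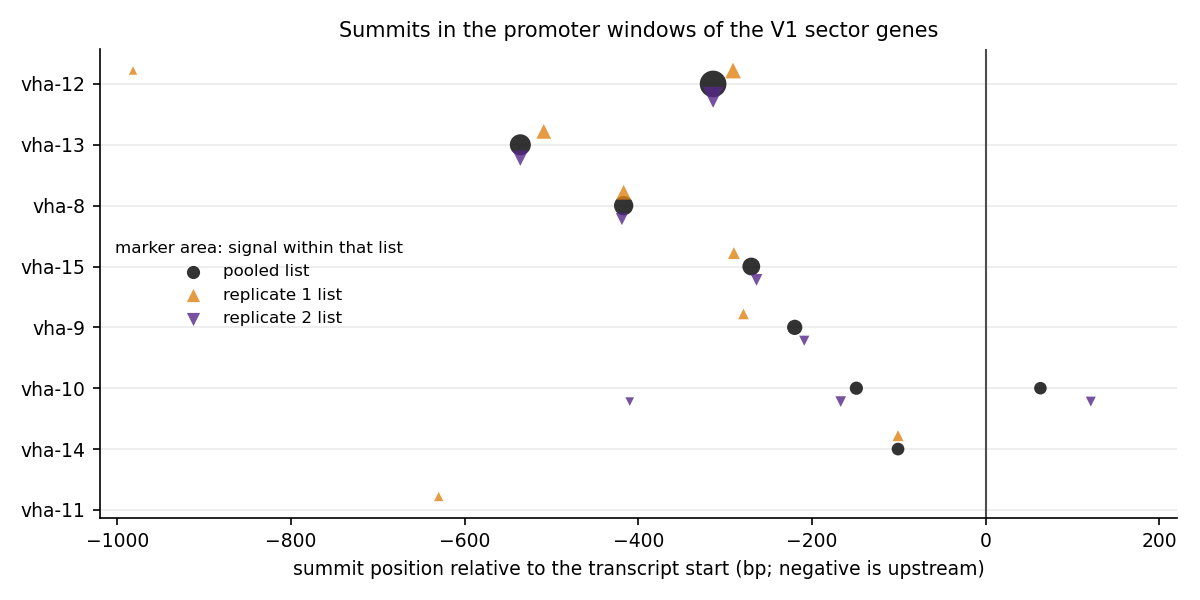
Position of every region summit in the promoter windows of the V1 genes (rows, in order of pooled signal), in bp from the transcript start. Circles are the pooled list, triangles the replicates, and marker area is the signal within that list; the largest circles, at vha-12, vha-13 and vha-8, lie 314, 536 and 417 bp upstream.

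vha-12 was the highest V1 gene in both replicates, and the order below it differed. To set them side by side, the log2 ratio of replicate 2 to replicate 1 was taken for each gene, less its median of 0.19 over 1064 genes with an IDR peak. vha-13 differed least, with -0.03, and 93.3% of the genes with an IDR peak differed more. vha-15 had -0.20 and vha-9 had -0.32. The wider differences were in opposite directions. The ratio of replicate 2 to replicate 1 was 1.56-fold above the median ratio at vha-12 (0.65) and 1.64-fold below it at vha-8 (-0.71). Only 19.6% of genes with an IDR peak differed by more than vha-12 and 16.4% by more than vha-8. The median absolute difference was 0.32 over the 5 V1 genes listed in both replicates and 0.31, with an upper quartile of 0.57, over all genes with an IDR peak. These sets are unlike, since IDR peaks are chosen for agreement between replicates and vha-9 and vha-15 have none. vha-10, vha-11 and vha-14 are each missing from a replicate list and have no such ratio. The summits of the replicates were 2 bp apart at vha-8, 23 bp at vha-12, 26 bp at vha-15, 27 bp at vha-13 and 70 bp at vha-9, with a median of 21 bp over all genes with an IDR peak.

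**Figure D3:**
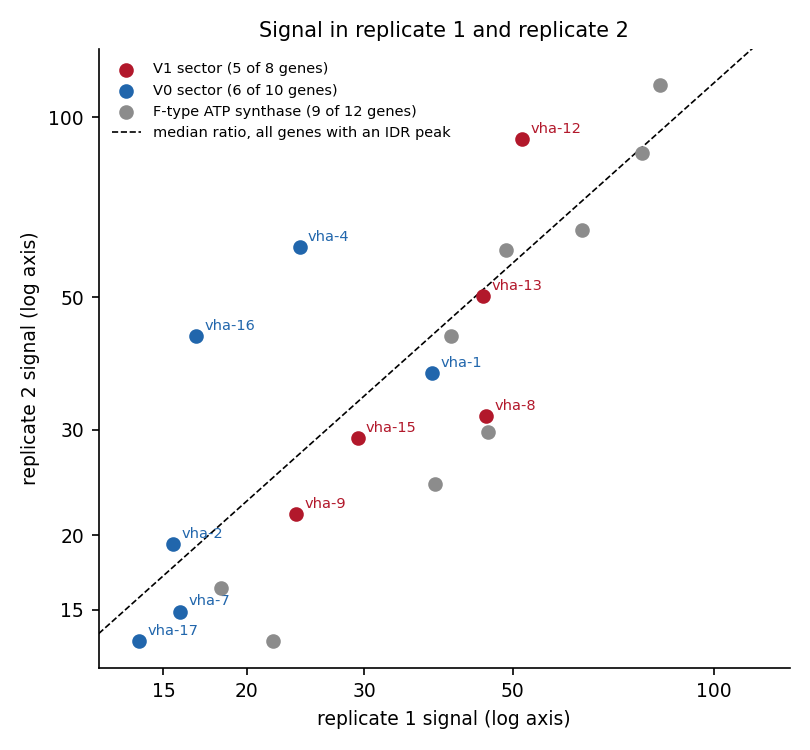
Signal in replicate 1 (x) and replicate 2 (y), on log axes, for the V1, V0 and F-type ATP synthase genes that had a region in both lists. The dashed line is the median ratio over all genes with an IDR peak; vha-13 lies close to it, vha-12 above it and vha-8 below it.

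In the other parts of the enzyme, the promoter windows held IDR peaks of lower signal than at vha-12 and vha-13. The V0 sector had 2 genes of 10 with an IDR peak, against 3 of 8 in V1 and 5.34% of all genes. They were vha-4 (subunit c'') with 84.5 and vha-1 (a proteolipid subunit c) with 76.6. vha-4 had 24.0 in replicate 1 and 60.7 in replicate 2, and by the highest regions of replicate 2 alone the V0 genes were vha-4 and vha-16, while by those of replicate 1 alone only vha-1 was among them. The vha-1 summit also fell in the promoter of sqv-3 and the vha-4 summit in that of T01H3.5. vha-16 (subunit d) had 62.6 in the pooled list, 16.8 in replicate 1 and 43.1 in replicate 2. The proteolipid gene vha-2 had 37.0 in its own coding exon, 86 bp past the start, and vha-7 (subunit a) had 28.0. vha-3 (subunit c) and vha-17 (subunit e) were in replicate lists only, with at most 13.8, and vha-5, vha-6 and unc-32, all of subunit a, had no region in the promoter window in any list. With the window extended to 2000 bp upstream, unc-32 had an IDR peak of 93.9 at 1318 bp, slightly above the 92.7 of vha-13. This peak lies in the 1483 bp between unc-32 and the divergent gene lin-9, nearer to lin-9.

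The second gene for subunit H, vha-18, had no region in its promoter window in any list, while vha-15 had 1 in each of the pooled and replicate lists. Of the accessory genes, vha-19, the Ac45 homologue, had an IDR peak of 76.9 that lay 354 bp upstream, and vha-20, the homologue of the prorenin receptor, had 31.6 in the pooled list. The F-type ATP synthase of mitochondria has a related rotary design. Of its 12 listed genes 6 had an IDR peak, against 5.34% of all genes. They were atp-5 (199.6), F58F12.1 (166.8), atp-2 (128.0), atp-1 (110.3), asg-2 (82.5) and atp-3 (80.8). Of these 6, all but F58F12.1 shared their summit with the promoter of another gene, as did 58.7% of all genes with an IDR peak. The median pooled signal was 70.4 over the 12 F-type genes, against 57.8 over the 8 V1 genes. Among 16 genes of the lysosome, where the V-ATPase works, ctns-1, the cystine transporter, had 146.2 and scav-3, a membrane protein of the scavenger receptor family, had 96.5. The ctns-1 summit also fell in the promoter of cdc-48.2 and the scav-3 summit in that of Y49E10.21. These lists were not tested against each other.

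**Figure D4:**
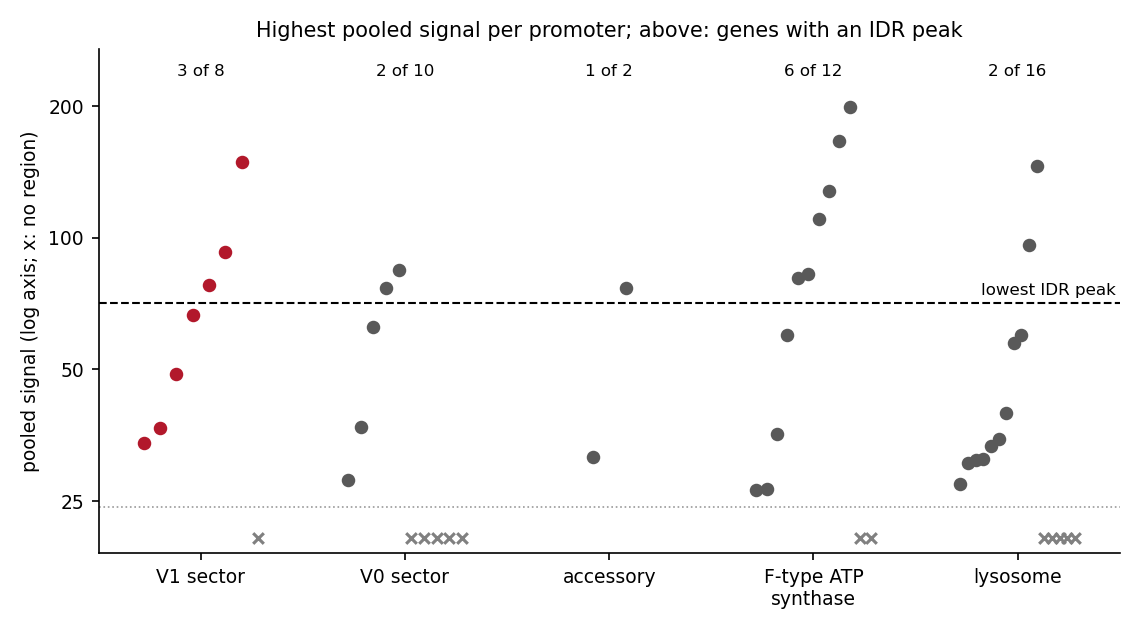
Highest pooled signal per promoter (log axis) for the V1, V0, accessory, F-type ATP synthase and lysosome genes, with crosses for genes without a pooled region and the number with an IDR peak above each list. V1 reaches 149.1 and has 3 of 8 genes above the dashed IDR limit of 71.1, V0 reaches 84.5 with 2 of 10.

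Promoters most like vha-12 in both replicates were found by the distance between percentiles in the 2 replicate lists, over all genes outside these lists. They were cdc-48.2, which encodes an AAA ATPase, with 52.7 in replicate 1 and 95.7 in replicate 2, dhs-1 with 50.6 and 88.0, and adm-4 with 52.1 and 100.4. The cdc-48.2 region is the same one as at ctns-1. Promoters most like vha-8 were C17H12.2, through the region they share, and then ile-2 and trap-2, which share a region on chromosome X with 45.3 in replicate 1 and 31.4 in replicate 2.

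Within 100 bp of the summit, GAGAGA or its complement was present at 5 of 7 V1 regions (vha-8, vha-9, vha-13, vha-14 and vha-15). It was present at 39.4% of all 1106 IDR peaks and at 15.7% of 6130 low-ranked regions, meaning those in the lower part of the pooled list (signal below its median) and away from IDR peaks. AGAGAC was at 4 of 7 (vha-9, vha-12, vha-13 and vha-15), against 31.2% of IDR peaks and 9.27% of low-ranked regions. The longer word GAGACGCAG was at vha-15 only, against 12.2% of IDR peaks and 2.07% of low-ranked regions. ACGCAG, a word added after the sequences were seen, occurred 2 times at vha-12 and 1 time at vha-15, the highest signal inside and outside the IDR list. It was at 22.4% of IDR peaks and 6.38% of low-ranked regions. CCGCCC was at vha-9 only, against 13.3% of IDR peaks and 6.64% of low-ranked regions. Both of these sets include regions outside promoters. The regions of vha-9, vha-10, vha-14 and vha-15 belong to neither set, since their pooled signals lie between the list median of 31.2 and the IDR limit of 71.1. Among the V1 genes with an IDR peak, GAGAGA was at vha-8 and vha-13, and AGAGAC at vha-12 and vha-13. Over the 763 IDR peaks with a promoter summit, GAGAGA was at 32.8%, AGAGAC at 26.9%, GAGACGCAG at 9.57%, ACGCAG at 18.7% and CCGCCC at 12.8%.

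The ETS core GGAA was at 5 of 7 regions, with none within 100 bp of the summit at vha-12 or vha-9, and at 81.6% of IDR peaks and 86.8% of low-ranked regions. The longer ETS word CCGGAA was at 0 of 7, against 5.79% of IDR peaks and 7.8% of low-ranked regions. The E-box CACGTG and the GATA word TGATAA were each at 0 of 7. CACGTG was at 4.52% of IDR peaks and 4.13% of low-ranked regions, and TGATAA at 7.32% of IDR peaks and 17.3% of low-ranked regions. With the window of 50 bp, GGAA was at 2 of 7 regions, against 55.2% of IDR peaks and 63.8% of low-ranked regions. It lay at -4 to -1 from the summit at vha-13 and at -13 to -10 at vha-15. With the window of 250 bp it was at 7 of 7, against 98.1% and 99.0%. With 7 regions, these counts are descriptions of the letters in these windows. The longest run of only G and A or only C and T was 21 bases at vha-14, which has the lowest signal of the 7, and 15 bases at vha-12 and at vha-15. It was 11 bases at vha-9 and 9 bases at vha-8, vha-10 and vha-13, against a median of 11 bases over IDR peaks.

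Among the 7 V1 promoters with a pooled region, which leaves out vha-11, the order of signals was similar to that of GC content, but not the same. vha-12 was above vha-13 in signal and below it in GC content, and so was vha-10 relative to vha-14. GC content within 100 bp of the summit was 55.7% at vha-13 and 53.7% at vha-12, 46.3% at vha-8 and at vha-15, 41.3% at vha-9, 35.3% at vha-14 and 24.9% at vha-10. Spearman's rho between GC content and pooled signal was 0.92 over these 7 regions and 0.28 over all 5052 pooled regions with a summit in a promoter. The 7 points come from the same pooled libraries and were chosen with their signals in view. GC content averaged 45.0% ± 7.69 (SD, n = 1106) over IDR peaks and 37.9% ± 8.53 (SD, n = 6130) over low-ranked regions. Over the IDR peaks with a promoter summit it averaged 43.5% ± 7.71 (SD, n = 763). The part of base composition in the signal was not tested.

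**Figure D5:**
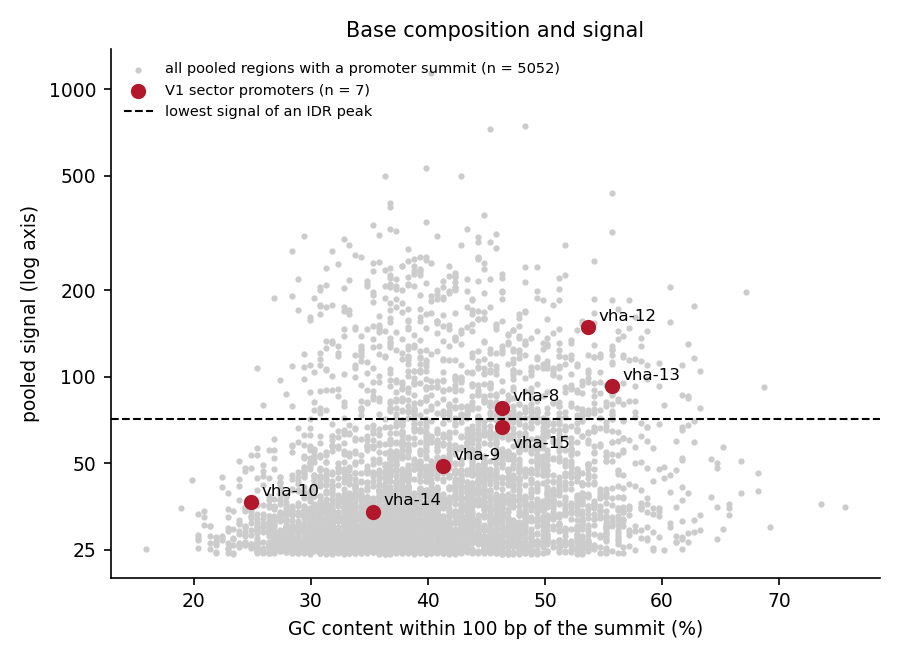
GC content within 100 bp of the summit (x, %) and pooled signal (y, log axis) for the 7 V1 promoters with a pooled region (red) and all 5052 pooled regions with a promoter summit (grey). The V1 points run from vha-10 at 24.9% GC to vha-13 at 55.7%, and the grey points are widely scattered.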

How the data were processed

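ETS-4 was measured by ChIP-seq in 2 biological replicates of 1 group. The signal of each region (column 7) and its −log10 q (column 9) are the values the authors deposited in narrowPeak lists, per the labels in the ce11 and ce10 builds. Per the texts deposited with the samples, replicate and pooled lists were called against a control and kept weak regions as input to IDR. The aligner, peak caller and IDR threshold are not given in the sources used. The control was not analysed here. The signal covers an unknown depth, and 2 replicates give no interval.

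Summits of the ce11 lists were placed against 29314 starts of 19973 protein-coding genes (Ensembl release 115, WBcel235, whose chromosome lengths hold every region), from 1000 bp upstream to 200 bp downstream. The highest signal in a promoter was the gene's value. Sequence within 100 bp of summits was searched on both strands for 9 words. Python 3.11.15, numpy 2.4.6, pandas 2.3.3, scipy 1.17.1 and matplotlib 3.10.9 were used, and the placement was tested on simulated data. No test was run.

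The genes, lists and words were chosen with earlier results of these data known. The named genes were all V-ATPase genes, lysosome and F-type ATP synthase genes with an IDR peak, genes that share a region with a V1 gene, and the 3 genes nearest in replicate percentiles to the highest and to the lowest V1 gene with an IDR peak. Neighbours that set a position are named as well. Alternatives were promoter windows of 500/100 and 2000/200 bp, assignment to the nearest start (up to 5 kb), the farthest upstream start, any overlap with the window, the upper 50% of IDR peaks, double the IDR number of pooled regions, each replicate alone, overlap rules between replicates, and word windows of 50 and 250 bp. The ce10 IDR list was added after the data were seen. Its regions were matched by signal within 0.01, with no ce10 coordinates used.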

Additional observations from a re-analysis of the deposited data

How the results depend on the processing

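The count of 3 V1 genes with an IDR peak stood against 5.34% of all genes. It was 1 (vha-12) with the upper 50% of IDR peaks, against 2.97% of all genes. It was 5 (vha-9 and vha-15 added) with the pooled list at double the IDR number, against 9.03% of all genes. With each replicate alone it was 2 without replicate 1 (vha-8 lost) and 3 without replicate 2, against 5.17% and 5.07% of all genes. It was 2 with the window of 500/100 bp (vha-13 lost), against 4.17% of all genes. With the nearest start it was 2 (vha-8 lost to C17H12.2), against 5.07% of all genes. It was 3 under the remaining windows and starts, against 5.01% to 6.76% of all genes, and 3 with the ce10 list. The count of 2 V0 genes was 4 with the window of 2000/200 bp (vha-2 and unc-32 added), against 6.76% of all genes. The vha-2 peak there is the one already counted for vha-1, and the unc-32 peak lies nearer to lin-9. The V0 count was 1 with the nearest start and 0 with the upper 50% of IDR peaks, against 5.07% and 2.97% of all genes. Leaving out a replicate gave 1 to 2 V0 genes. The median pooled signal of 57.8 was 42.8 with the window of 500/100 bp. With a replicate list alone it was 26.5 to 27.3, on the scale of those lists, which is lower by construction. The count of 5 genes in both replicates was 5 under each overlap rule. GAGAGA was at 4 of 7 regions with the window of 50 bp, against 25.8% of IDR peaks and 8.76% of low-ranked regions. With the window of 250 bp it was at 6 of 7, against 51.6% and 31.4%. Of 20 signals under other windows and the nearest start, 19 were the same value, from the same region, and vha-8 had 25.8 with the nearest start. vha-13 gave no signal with the window of 500/100 bp and is not among the 20. No paired analysis was possible because there is 1 group. Unknown depth, 2 replicates and the lowest value of each list limit every level, above all for vha-10, vha-11 and vha-14, each absent from a replicate list.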

Other observations

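Some V1 genes without an IDR peak of their own have one close by at another gene, named here after the values were seen. The nearest to vha-9 had a signal of 76.5 and lay 2551 bp from its start, 54 bp from the start of mdt-22, a Mediator subunit. The nearest to vha-10 had 79.1 and lay 3325 bp away, with tns-1, a tensin, as the gene of the nearest start. The nearest to vha-15 had 113.2 and lay 5060 bp away, 353 bp from the start of rpl-11.2, a ribosomal protein gene. These 3 lie on the far side of the V1 gene's start, in the direction of transcription. For vha-14 and vha-11 the nearest IDR peak was 38067 and 74564 bp away. In the ce10 IDR list, which has 1177 regions down to a signal of 68.2, the signals of vha-8, vha-12 and vha-13 were found and that of vha-15 (66.6) was again just below the limit.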
